A study of Mus musculus with 4 samples.

Results

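The transition zone is the short segment between the basal body and the axoneme of a cilium or flagellum, where fibres tie the doublet microtubules to the membrane. Proteins gathered there act as a gate for what enters and leaves the ciliary compartment, and loss of many of them causes ciliopathies such as Meckel syndrome, Joubert syndrome and nephronophthisis. A spermatid builds a transition zone at the base of its flagellum as the axoneme starts to grow. RFX transcription factors, among them RFX2, bind the X-box, a sequence motif found in the promoters of many ciliary genes.

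The RNA levels of 9 transition zone genes, Nphp4, Rpgrip1l, Tctn1, Tctn2, Mks1, B9d1, B9d2, Cc2d2a and Tmem67, were examined in mouse testes with and without RFX2. They were taken by gene symbol from the 22311 genes of the deposited files, where all 9 were listed. The mutant mice were Rfx2-/-, with exons 6 and 7 of Rfx2, which encode the DNA binding domain, replaced by a neomycin-resistance cassette in a single embryonic stem cell clone. The sample labels call the control mice wild type and the strain DBA, whereas the study's methods describe heterozygous controls. The background given there is a mix of 2 strains, neither of them DBA. All mice were 24 days old, an age at which the first round spermatids have formed, and RNA came from whole testis, with 2 samples of each genotype. The methods call these samples biologically independent and speak of individual control mice.

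The values are FPKM, fragments per kilobase of transcript, scaled to the mapped fragments of the sample, so levels are per length and can be set side by side between genes. The confidence bounds deposited with them correspond to between 17.16 and 20.35 M fragments per sample. Rfx2 itself stood at 36.7 FPKM in mutant 1 and 39.8 in mutant 2, while control 1 had 123 and control 2 had 89.4. Its log2 fold change was -1.43 (SE 0.19, adjusted p = 0.00617 by limma). The FPKM is a value for the whole gene, of which the mutants lack 2 exons, and what the RNA left in the mutants consists of was not tested. Markers of spermatocytes, round spermatids and Sertoli cells were present in every sample. Markers of elongating spermatids set mutant 1 apart, with a summed level over 7 genes of 1117.1 FPKM, while mutant 2 had 6055.0, control 1 had 7592.6 and control 2 had 5059.7. Results are therefore also given without mutant 1. The study reports that mutant spermatids stop before elongation, and that RT-PCR showed no difference in protamine and transition protein RNA. Levels of these 7 genes are thus not read here as numbers of elongating spermatids.

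The 9 members occupied 9 loci on 5 chromosomes of the mm9 assembly (NCBIM37). Nphp4 (chr4:151850815-151937292, plus strand) and Tmem67 (chr4:11966502-12017167, minus strand) lie on chromosome 4. Tctn1 (chr5:122691296-122714469, minus strand), Tctn2 (chr5:125048758-125077658, plus strand) and Cc2d2a (chr5:44053618-44132211, plus strand) lie on chromosome 5. Mks1 (chr11:87666717-87677305) and B9d1 (chr11:61318646-61326433) are both on the plus strand of chromosome 11. B9d2 (chr7:26466177-26471577, plus strand) and Rpgrip1l (chr8:93740929-93837161, minus strand) are on chromosomes 7 and 8. Some of them overlap a gene on the opposite strand in the annotation, Nphp4 with Kcnab2 over 1166 bases, Tctn1 with Hvcn1 over 1011 bases, and Tmem67 with Gm11842 and C430048L16Rik.

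Since the genotypes differ in an RFX factor, the X-box was looked for in the RefSeq promoter windows of the members, from 250 bases before to 50 bases after each start site in GRCm38.p6. A window was found for 8 of the 9 genes, with Tmem67 the exception. The motif, with a gap of 0 to 3 bases and on either strand, was present without a mismatch in 3 of these 8 genes, Tctn1, Tctn2 and B9d2. It was present in 1.754% of the 27025 gene symbols with such a window. With 1 mismatch allowed, Nphp4 and Mks1 joined them, making 5 genes, against 12.65% of all symbols. A gene with several windows was counted if any of them held a match, here and in the shares. Nphp4 had its match in window 3 and none in windows 1 and 2, and B9d2 in window 1 and not in window 2. Positions are from the start site of the window with the match. The stretches that hold these matches are shown because Tctn1 was higher and Tctn2 and Nphp4 were lower in the mutant samples, with the X-box in capitals and each read 5′ to 3′ on the strand of its gene.
Tctn1, exact, at 37 to 50 from the start site (chr5:122264411-122264440, minus strand): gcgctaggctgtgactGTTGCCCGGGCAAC
Tctn2, exact on the opposite strand, at -62 to -49 (chr5:124598647-124598740, plus strand): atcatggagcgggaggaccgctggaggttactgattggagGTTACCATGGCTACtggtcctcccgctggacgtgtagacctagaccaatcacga
B9d2, exact, at 17 to 30 (chr7:25680780-25680809, plus strand): aggggaggaacctgctGTTGCCCCAGCAAC
Nphp4, 1 mismatch, at -231 to -218 (chr4:152477892-152477964, plus strand): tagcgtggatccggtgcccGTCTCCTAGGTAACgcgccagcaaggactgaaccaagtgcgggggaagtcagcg
Mks1, 1 mismatch, at -24 to -11 (chr11:87853151-87853214, plus strand): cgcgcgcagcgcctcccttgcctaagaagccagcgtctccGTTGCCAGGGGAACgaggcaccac
No match was found in the windows of Rpgrip1l, B9d1 and Cc2d2a. The members' windows were 48.0% to 63.3% GC, with a median of 59.7%, above the median of 52.7% over all windows. A match describes these letters only, and says nothing of binding.

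The members were expressed over a wide range of levels. In control testes, the order of the mean levels was B9d1 at 109 FPKM, Tctn2 at 54.1, Tctn1 at 14.6, Tmem67 at 14.4, Mks1 at 9.24, Rpgrip1l at 7.34, B9d2 at 5.33, Nphp4 at 4.15 and Cc2d2a at 0.579. The highest was 188 times the lowest. Of the neighbours in this order, only Tctn1 and Tmem67 had control samples that overlapped. In mutant testes the order was B9d1, Tctn2, Tctn1, Rpgrip1l, Tmem67, Mks1, B9d2, Nphp4 and Cc2d2a, with a ratio of 149 between the ends. Here Rpgrip1l overlapped with Tmem67, and Tmem67 with Mks1, while Tctn1 stood clear of Rpgrip1l by a factor of 2.17. Thus 6 of the 9 places were held by the same gene in both genotypes, and the exchange was between Tmem67, Mks1 and Rpgrip1l in the middle of the order.

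**Figure D1:**
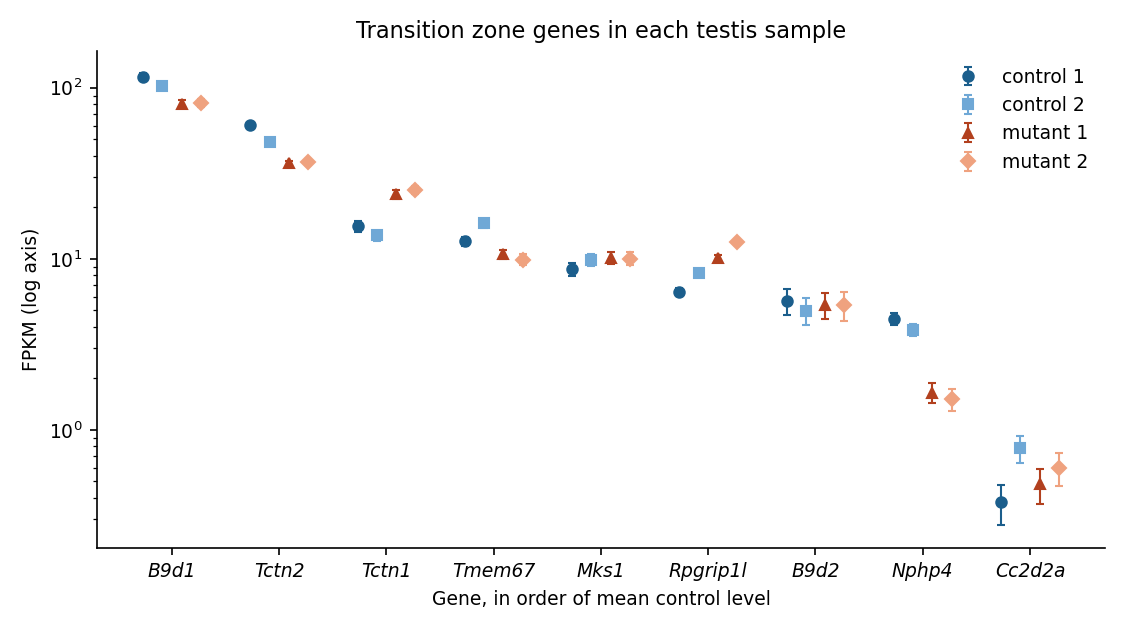
FPKM of each transition zone gene in each of the 4 testis samples, on a log axis, with genes in order of their mean control level and bars spanning the confidence bounds deposited for each sample. The mutant samples lie below both control samples for B9d1, Tctn2, Tmem67 and Nphp4 and above both for Tctn1, Rpgrip1l and, narrowly, Mks1, and Cc2d2a stays under 1 FPKM throughout.

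Nphp4 and Rpgrip1l belong to the nephronophthisis module, a set of scaffold proteins that sits close to the axonemal microtubules. Nphp4, a large scaffold protein, measured 1.65 FPKM in mutant 1 and 1.51 in mutant 2, while control 1 had 4.44 and control 2 had 3.86. Both mutant samples were below both control samples, and the deposited bounds of the mutant samples, which reached at most 1.87, did not meet those of the control samples, which began at 3.53. The mutant mean was 1.58 ± 0.102 (SD, n = 2) and the control mean 4.15 ± 0.413 (SD, n = 2), so that the mutant level was 38.1% of the control level. This was the largest difference of any member. On the log2(FPKM + 1) scale it came to -0.99 (SE 0.21, 95% interval -1.48 to -0.51), with an adjusted p = 0.0523 by limma, just above the threshold of 0.05. The added 1 shrinks the fold change of a gene at this level. On the fragment numbers that the bounds correspond to, between 187 and 240 in the mutant samples and between 568 and 617 in the control samples, limma-voom gave -1.37 with an adjusted p of 0.0388. Over 11 alternatives with all 4 samples that tested it, Nphp4 had an adjusted p between 0.017 and 0.194 and passed in 3. With any sample left out it lay between 0.0564 and 0.305. As the RNA came from whole testes, fewer cells that express a gene and less of its RNA per cell cannot be told apart, here or for any gene below. Kcnab2, the gene that overlaps the Nphp4 locus on the other strand, had 3.94 and 5.42 FPKM in mutant samples (controls, 13.5 and 3.89), and its part in the Nphp4 values was not tested.

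Rpgrip1l, a scaffold with C2 domains that helps to anchor other transition zone proteins, lay on the other side. It measured 10.1 and 12.5 FPKM in mutant 1 and 2, against 6.41 and 8.28 in control 1 and 2. The samples did not overlap, and the mutant mean of 11.3 ± 1.70 was 1.54 times the control mean of 7.34 ± 1.32 (SD, n = 2 each). The log2 difference was 0.56 (SE 0.22, 95% interval 0.05 to 1.07), with an adjusted p = 0.462 by limma, which does not pass. The mutant samples lay further apart on this scale for Rpgrip1l than for the other 7 members tested. Within a sample, the ratio of Nphp4 to Rpgrip1l was 0.164 and 0.121 in the mutant testes, against 0.693 and 0.466 in the control testes. That is a log2 difference of -2.01, the largest of 8 ratios computed. These ratios were chosen with the values known, and an exact permutation test of 2 samples against 2 cannot give a two-sided p below 0.333, which each of them had.

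The tectonics, Tctn1 and Tctn2, are related proteins of the Meckel syndrome module, which lies at the ciliary membrane. Tctn1 measured 23.8 and 25.2 FPKM in the mutant testes, against 15.5 and 13.7 in the control testes. Every mutant sample was above every control sample, with means of 24.5 ± 0.986 and 14.6 ± 1.3 (SD, n = 2 each), a ratio of 1.68. The log2 difference of 0.71 (SE 0.17, 95% interval 0.31 to 1.12) was at percentile 99.1 of all tested genes, with an adjusted p = 0.0956 by limma. Robust eBayes moved that adjusted p to 0.0327, and 11 other alternatives with all 4 samples left it above the threshold, in a range up to 0.212. Hvcn1, which overlaps Tctn1 on the opposite strand, had 1.55 and 1.0 FPKM without RFX2, beside 0.569 and 0.779 in control samples. Its part in the Tctn1 values was not tested.

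Tctn2 measured 36.1 and 36.6 FPKM in the mutant testes, against 60.3 and 47.9 in the control testes. Here the mutant samples were the lower ones, with means of 36.3 ± 0.342 and 54.1 ± 8.75 (SD, n = 2 each), or 67.2% of the control level. The log2 difference was -0.55 (SE 0.17, 95% interval -0.95 to -0.15), with an adjusted p = 0.248 by limma, so it did not pass. The ratio of Tctn2 to Tctn1 was 1.51 and 1.45 in mutant testes, while the controls had 3.89 and 3.50, a log2 difference of -1.32. Both genes hold an exact X-box in the windows shown above, and their mutant samples lay on opposite sides of the control samples, although neither difference passed the test. Tctn3, the remaining tectonic, measured 13.7 and 13.9 FPKM in mutant samples (controls, 12.9 and 11.2). Its log2 difference of 0.18 (SE 0.19, adjusted p = 1.0 by limma) lay between those of the other two.

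**Figure D2:**
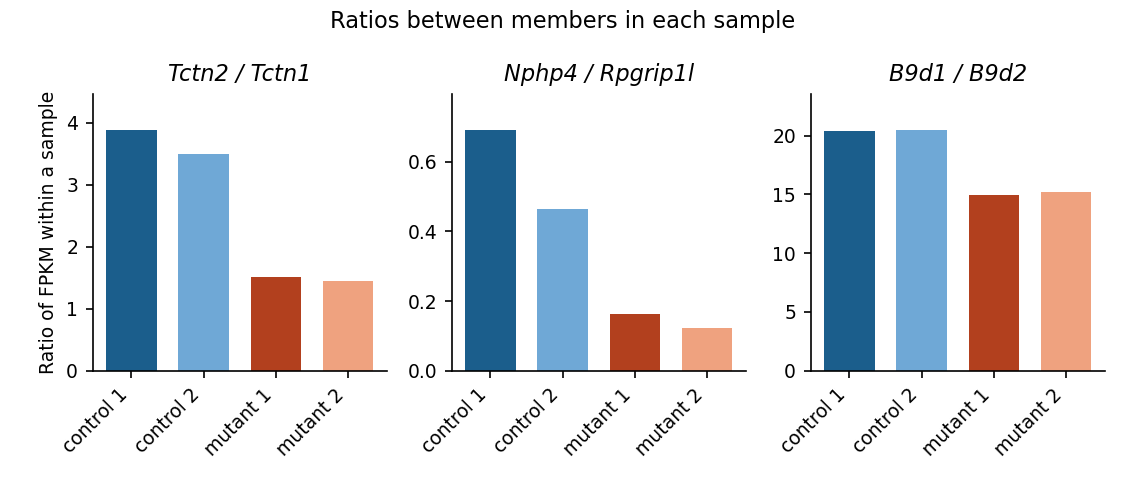
Ratio of the FPKM of one gene to that of another within each sample, for Tctn2 over Tctn1, Nphp4 over Rpgrip1l and B9d1 over B9d2, with one bar per sample and axes that start at 0. Each ratio is lower in both mutant samples, for instance 1.51 and 1.45 against 3.89 and 3.50 for Tctn2 over Tctn1.

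Mks1, B9d1 and B9d2 each carry a B9 domain, a membrane-binding fold, and their proteins join in a complex of the Meckel syndrome module. No difference of the 3 genes passed the test. B9d1, the most abundant member, measured 80.0 and 81.5 FPKM in the mutant testes, against 116 and 102 in the control testes. The mutant samples were lower without overlap, at means of 80.7 ± 1.03 and 109 ± 10.0 (SD, n = 2 each), or 74.1% of the control level. The log2 difference was -0.43 (SE 0.16, 95% interval -0.80 to -0.05), with an adjusted p = 0.428 by limma. B9d2 measured 5.38 and 5.36 FPKM without RFX2, beside 5.69 and 4.98 in control testes, so that the mutant samples lay between the control samples. Its difference of 0.01 (SE 0.21, adjusted p = 1.0 by limma) had a 95% interval of -0.47 to 0.50, wide enough to include the estimate for B9d1. Mks1 measured 10.1 and 10.0 FPKM in mutant testes, while the controls had 8.67 and 9.81. The samples of Mks1 did not overlap, although control 2 and mutant 2 were close, and the difference of 0.11 (SE 0.19, 95% interval -0.34 to 0.56) had an adjusted p of 1.0 by limma. The ratio of B9d1 to B9d2 was 14.9 and 15.2 in mutant samples (controls, 20.4 and 20.5).

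Tmem67 encodes meckelin, a membrane protein with several transmembrane passes and a cysteine-rich outer part like that of Frizzled receptors. It measured 10.7 and 9.9 FPKM in the mutant testes, against 12.7 and 16.1 in the control testes. The mutant samples were below both control samples, with means of 10.3 ± 0.529 and 14.4 ± 2.38 (SD, n = 2 each), or 71.5%. The log2 difference was -0.44 (SE 0.20, 95% interval -0.90 to 0.02), with an adjusted p = 0.636 by limma. Cc2d2a, a coiled-coil protein with a C2 domain that other proteins of the module need to reach the transition zone, was close to the floor of the measurement. It had 0.481 and 0.601 FPKM without RFX2, beside 0.377 and 0.780 in control testes. The control samples lay on either side of the mutant samples, and the bounds correspond to only 57 to 125 fragments per sample. It was below 1 FPKM in every sample and so was left out by the filter. In the fit without a filter its log2 difference was -0.02 (SE 0.15, adjusted p = 1.0 by limma).

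Over all 9 genes, the summed level was 178.3 and 183.2 FPKM in the mutant testes, against 230.1 and 207.2 in the control testes. B9d1 and Tctn2 together made up 65.1% and 64.4% of that sum in mutant testes, while the controls had 76.6% and 72.3%. The share of Tctn1 was 13.4% and 13.8% in the mutant, against 6.74% and 6.59% in the control samples, and the share of Nphp4 was 0.927% and 0.823%, against 1.93% and 1.86%. Tctn1 thus held a larger share, and Nphp4, B9d1 and Tctn2 a smaller one, in both mutant samples. The 2 mutant samples resembled each other closely for these genes. Their median absolute log2 difference was 0.0523 over the 8 members tested, against 0.209 over all tested genes, whereas for the control samples it was 0.178 against 0.222.

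All 8 members that entered the fit had at least 1 FPKM in every sample. At an adjusted p under 0.05 by limma, 0 of 8 were lower and 0 were higher, where 2.52% of the 12985 tested genes were lower and 0.308% were higher. At an unadjusted p under 0.05, 3 members were lower (Nphp4, Tctn2 and B9d1) and 2 were higher (Rpgrip1l and Tctn1), where 6.68% of all tested genes were lower and 2.01% higher. The mutant samples lay below both control samples in 4 members and above both in 3, where 15.2% and 16.3% of all tested genes did so. The median log2 difference of the members was -0.21, and that of all tested genes 0.0318. With robust eBayes 1 member was lower and 1 was higher at an adjusted p under 0.05, where 427 and 67 of the 12985 tested genes were. With limma-voom 1 member was lower, where 288 tested genes were. With eBayes without a trend 1 member was lower, where 308 tested genes were. Without mutant 1, the sample with a low sum of elongating spermatid markers, a single mutant sample remained, so only the median is given here. It was -0.20 for the members and -0.0289 for all tested genes.

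**Figure D3:**
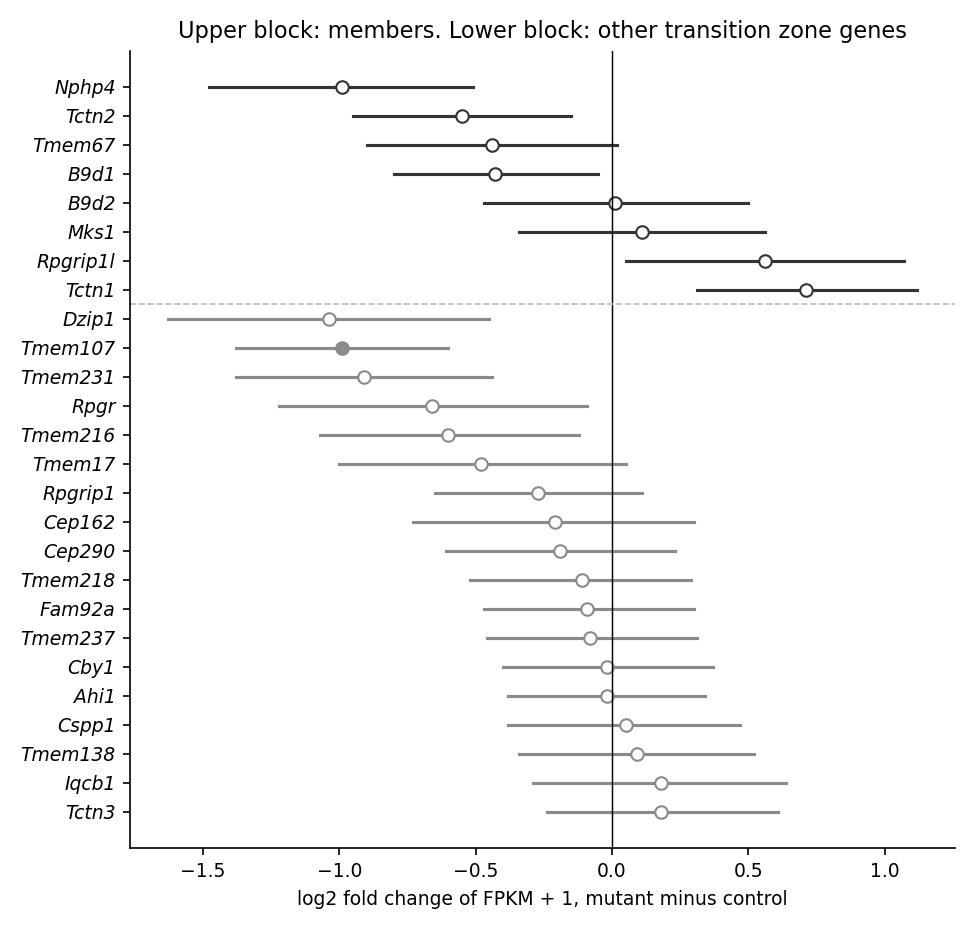
Log2 difference in FPKM + 1 between mutant and control testes, with 95% intervals from limma, for the 8 tested members above the dashed line and 18 other transition zone genes below it. Filled points have an adjusted p under 0.05, which holds for Tmem107 alone, and the intervals of Nphp4, Tctn2 and B9d1 lie below 0 while those of Rpgrip1l and Tctn1 lie above it.

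The members were next set beside germ cell and somatic markers of the same samples. Prm1, a protamine of elongating spermatids, measured 136.4 FPKM in mutant 1, while mutant 2 had 1195.3, control 1 had 1792.4 and control 2 had 1265.5. The 8 members tested did not show such a gap, since their mutant samples differed by at most 0.283 on the log2 scale. Round spermatid markers summed to 614.0 and 845.8 FPKM in mutant samples (controls, 714.4 and 578.1), and spermatocyte markers to 590.1 and 478.4, against 484.4 and 516.9, with overlapping ranges in both cases. Acrbp was the largest part of the round spermatid sum, at 374.8 FPKM in mutant 1. Acrv1, Spaca1 and Catsper3 were lowest in mutant 1, whereas Acrbp and Zpbp were not. Catsper3, for instance, measured 17.8 FPKM in mutant 1, 40.6 in mutant 2 and 33.1 in each control sample. Summed Sertoli cell markers were at 180.6 to 208.1 in the mutant and 147.5 to 212.7 in the control samples, and spermatogonial markers at 25.5 to 29.2 and 20.8 to 31.9. Of the 5 genes of each of the spermatogonial, spermatocyte, round spermatid and Sertoli lists, the 7 of elongating spermatids, the 4 and 3 tested genes of Leydig and peritubular myoid cells, the 3 of macrophages and the 2 tested for endothelium, 0 passed at an adjusted p under 0.05 by limma, and 0 had an unadjusted p under 0.05. The elongating spermatid list nevertheless had a median log2 difference of -1.23, with Prm1 at -1.89 (adjusted p = 0.594 by limma) and Tnp1 at -1.71 (adjusted p = 0.576 by limma) lower in both mutant samples. In mutant 2, however, both were close to control 2, with Tnp1 at 998.7 FPKM beside 1014.6. The other markers of this list overlapped between genotypes. Among them Prm3, Odf1 and Smcp were higher in mutant 2 than in both control samples, Smcp at 704.7 FPKM against 466.4 and 368.9. Pax2 and Pax8, which mark the ciliated efferent ducts next to the testis, summed to at most 0.571 FPKM in any sample. The part of cell composition in the members' differences was not tested.

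**Figure D4:**
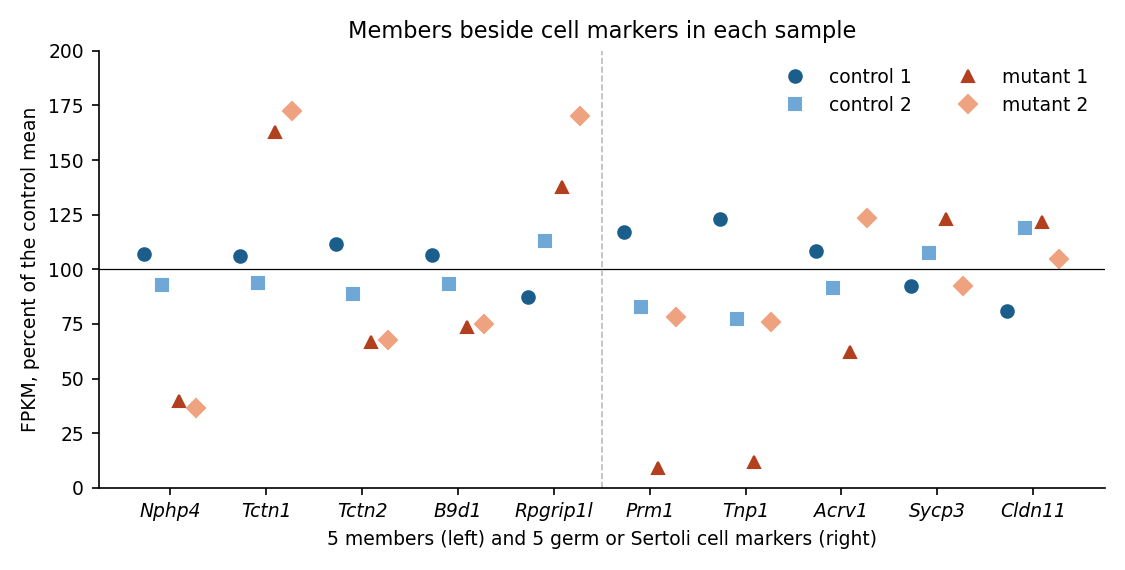
FPKM in each sample as a percentage of the control mean, for the 5 members with an unadjusted p under 0.05 on the left and 5 markers of germ and Sertoli cells on the right (Prm1 and Tnp1 for elongating spermatids, Acrv1 for round spermatids, Sycp3 for spermatocytes, Cldn11 for Sertoli cells). For each of the 5 members the mutant points do not overlap the control points, and Prm1 was 136.4 FPKM in mutant 1 and 1195.3 in mutant 2. The markers drawn do not stand for their whole lists. The elongating spermatid markers not drawn overlapped between genotypes. Mutant means of round spermatid markers ran from 88.2% (Catsper3) to 125.7% (Acrbp) of the control mean, with Acrv1 at 92.8%.

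Of 19 other genes whose products are known at the transition zone, 18 were tested and Dzip1l was too low. Tmem107, a small membrane protein of the Meckel syndrome module, was the only one that passed. It measured 19.2 and 16.6 FPKM in the mutant testes, against 37.3 and 35.7 in the control testes, and so fell by 0.99 on the log2 scale (SE 0.17, adjusted p = 0.0199 by limma). Its adjusted p was 0.231 without control 1 and 0.16 without control 2, and it passed in 8 of 12 alternatives with all samples. Dzip1, which acts at the base of the cilium, had the lowest log2 value, -1.04 (SE 0.26, adjusted p = 0.103 by limma), with 13.2 and 22.8 FPKM without RFX2, beside 40.6 and 33.4 in control testes. In 9 of these genes the mutant samples were below both control samples, and in 2, Tctn3 and Tmem138, above both, where 15.2% and 16.3% of all tested genes did so. At an unadjusted p under 0.05, 5 were lower and 0 were higher, where 6.68% and 2.01% of all tested genes were, and the median was -0.15. An exact X-box lay in the windows of 3 of the 17 genes that had one, Ahi1, Tctn3 and Tmem237, and a match with at most 1 mismatch in 8, Tmem107 among them. The shares over all symbols were 1.754% and 12.65%.

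The 5 further lists cover compartments on either side of the transition zone. The 6 distal appendage genes, which dock the basal body to the membrane, had a median of -0.08 and 0 calls, with values from -0.43 for Sclt1 to 0.03 for Cep89. The 4 genes of the inversin compartment, just beyond the transition zone, had a median of 0.05 and 0 calls. There Nek8, a kinase, measured 3.74 and 2.96 FPKM without RFX2, beside 7.08 and 6.31 in control testes (log2 difference -0.83, adjusted p = 0.139 by limma), and the scaffold Anks6 had 0.42. Among 18 genes of intraflagellar transport complex B, which carries cargo toward the tip, 1 fell and 2 rose, with a median of -0.19. Ift27, a small GTPase, fell by 0.86 (SE 0.18, adjusted p = 0.0478), and Ift74 and Ift81, which bind tubulin together, rose by 0.94 (SE 0.17, adjusted p = 0.0253) and 0.82 (SE 0.17, adjusted p = 0.0453), all by limma on the log2 scale. Without control 1 the adjusted p was 0.393 for Ift27, 0.0672 for Ift74 and 0.189 for Ift81, and without control 2 it was 0.289, 0.124 and 0.307. With all samples, Ift27 passed in 3, Ift74 in 9 and Ift81 in 4 of 12 alternatives. The 10 tested genes of complex A and its motor dynein-2 ran from -0.55 for Dync2li1 to 0.03 for Ift140, and the 13 genes of the BBSome and its helpers from -0.72 for Ttc8 to 0.17 for Bbs12. These had 0 calls each, medians of -0.17 and -0.24, and 3 genes each that were lower at an unadjusted p under 0.05. By the same measure, the distal appendage and inversin lists had 1 lower gene each, and complex B had 7 lower and 3 higher. Of all tested genes, 6.68% were lower and 2.01% higher in this way. Tctn1, at 0.71, and Rpgrip1l, at 0.56, were above every tested gene of these lists on this scale, other than Ift74 and Ift81. The added 1 shrinks the value of Anks6, whose ratio of mutant to control FPKM was 1.66, against 1.54 for Rpgrip1l and 1.68 for Tctn1.

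**Figure D5:**
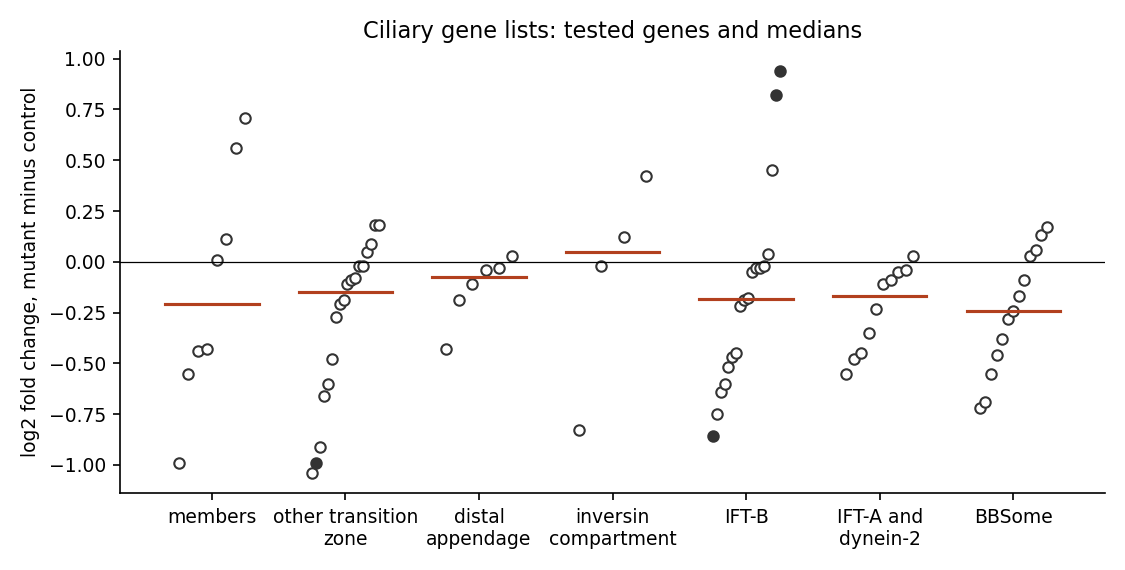
Log2 difference between mutant and control testes for each tested gene of the members and of 6 other ciliary lists, with the median of each list as a line and filled points for an adjusted p under 0.05. The members span -0.99 to 0.71, and the medians run from -0.24 for the BBSome to 0.05 for the inversin compartment.

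For the 2 members with the largest differences, the genes whose 4 values ran most like theirs were sought among all tested genes, by the root mean square difference of their centred log2 profiles over the 4 samples. Nphp4 was followed most closely by Gpr162 (0.0127), Vangl2 (0.0234) and Prss40 (0.0272). Gpr162 measured 0.148 and 0.0943 FPKM in mutant testes, while the controls had 1.4 and 1.1, and Vangl2 measured 0.371 and 0.34, with 1.92 and 1.61 in controls. These 2 genes passed the filter only through the control samples, and at such levels the added 1 sets much of their likeness to Nphp4. Prss40, a serine protease gene of the testis, measured 7.70 and 6.86 FPKM in mutant testes, while the controls had 16.4 and 14.9. Tctn1 was followed most closely by Fam160a2 (0.0344), Arg2 (0.0408) and Cdkl4 (0.0507). Fam160a2 measured 33.3 and 33.0 FPKM in mutant samples (controls, 21.2 and 18.3). Arg2 measured 1.36 and 1.6 FPKM in mutant samples (controls, 0.686 and 0.405). It passed the filter only through the mutant samples, and the added 1 sets much of its likeness to Tctn1. These likenesses rest on 4 samples and are descriptions only.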

How the data were processed

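RNA of whole testes from 24-day-old mice, 2 mutant and 2 control samples, was sequenced. Per the labels, the authors aligned reads to mm9 with TopHat2 2.0.6, and they deposited, for every sample, gene FPKM and their lower and upper confidence bounds. Such FPKM are normalized for transcript length and depth within a sample, and no scaling between samples is stated. Whether strand was used in counting is not given in the sources used here, so reads of a gene and of one overlapping it on the other strand may not be told apart. The authors' Cuffdiff comparison was not used here.

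Entries that share a symbol were summed, giving 22311 genes. The 12985 genes that reached an FPKM of 1 in no fewer than 2 of 4 samples were fitted as log2(FPKM + 1) with limma 3.58.1 in R 4.3.3 (lmFit and trended eBayes). Tests were two-sided, p-values were adjusted over all these genes after Benjamini and Hochberg, and the threshold was 0.05. Fold changes are on that scale, and intervals are 95% intervals from the fit. Percent and ratio values are taken from FPKM without the added 1. Fragment numbers were derived from the width of the deposited bounds. They are estimates, cover counting error only, and need not run with the FPKM of a gene. For Rfx2 they were 11000 at 123.1 FPKM in control 1 and 5406 at 89.4 FPKM in control 2. Scripts were tested on simulated data.

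The members, the gene lists and the tests were chosen with earlier results of these data known. The genes named are the 9 members, Rfx2, and from each other ciliary list every gene called plus the lowest and the highest log2 fold change. For likeness, 3 genes are named for each of the 2 members with the largest absolute fold change. Tmem138, the cell markers, the genes with an X-box and the genes overlapping members were added after their values were seen. Ift43 and Rhox5 were not analysed here. Tmem237, Cep89 and some others were found under older symbols. X-boxes were searched in RefSeq windows of 300 bases (GRCm38.p6), which were matched by symbol, and none of their coordinates were mixed with those of mm9, taken from GENCODE.

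Alternatives were pseudocounts of 0.1 and 0.01, no filter, a filter at an FPKM of 5, scaling by median ratios, quantile normalization, robust eBayes, eBayes without a trend, limma-voom on fragment numbers, a replicate block, the highest entry of a symbol in place of the sum, each sample left out, and 1 mismatch in the X-box. A crossed replicate block was added after seeing the data.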

Additional observations from a re-analysis of the deposited data

How the results depend on the processing

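The log2 differences of Nphp4, Rpgrip1l, Tctn1, Tctn2, Mks1, B9d1 and Tmem67 kept their sign under every alternative that tested them, and under each sample left out, where the lone sample of a genotype is assumed to vary like the other pair. B9d2 turned to -0.00796 with median-ratio scaling and to -0.071 without control 2, within a range of -0.071 to 0.09 over the samples left out. Members called lower went from 0 to 1 with eBayes without a trend (Nphp4, adjusted p = 0.0374 by limma), with robust eBayes (Nphp4, 0.017) and with limma-voom on fragment numbers (Nphp4, 0.0388), and members called higher from 0 to 1 with robust eBayes (Tctn1, 0.0327). With a sample left out 0 were called. Their median was -0.02 without a filter, which adds Cc2d2a, and 0.01 with the filter at an FPKM of 5, which drops Nphp4. Other transition zone genes called lower numbered 1, with 0 without a filter, with quantile normalization, with the crossed replicate block and with limma-voom, 2 with median-ratio scaling, robust eBayes and the replicate block, and 0 to 2 with a sample left out. Genes called lower and higher in the 5 neighbouring lists numbered 1 and 2. They became 0 and 1 with pseudocounts of 0.1 and 0.01, with the filter at 5, with quantile normalization and with eBayes without a trend, 0 and 0 without a filter, with median-ratio scaling and with the crossed block, 2 and 2 with robust eBayes, 0 and 2 with limma-voom, and 0 to 2 each with a sample left out. Rfx2 missed the threshold at -1.43 without a filter (adjusted p = 0.0607 by limma), at -1.45 with median-ratio scaling (0.0730) and at -1.66 with limma-voom (0.0676), and ran from -1.66 to -1.20 with a sample left out, missing it without control 1 (0.0628). Genes with an X-box numbered 5 with 1 mismatch. The cause of these shifts was not tested.

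The labels number the samples 1 and 2 in each genotype, but over genes the deviations of samples with one number correlated at -0.154, so the numbers were not taken as pairs. The replicate block and the crossed block called 0 members and leave 1 residual degree of freedom. Over all genes, 327 lower and 40 higher genes became 525 and 70 with the replicate block, 266 and 28 when it was crossed, 199 and 17 without a filter (of 19502 genes), and 202 and 17 with the filter at 5 (of 8886 genes). They became 216 and 16 with median-ratio scaling, 221 and 30 with quantile normalization, 427 and 67 with robust eBayes, 308 and 32 with eBayes without a trend, and 288 and 35 with limma-voom. B9d2 rests on 113 to 134 fragments a sample and Cc2d2a on 57 to 125, which limits what can be detected in them.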
